A study of Rattus norvegicus with 79 samples.

Results

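The comparison described here is between learning-impaired rats and rats of a group titled B, all of them 24-month-old males trained to find a hidden platform in a water maze. The arrays were chosen by their titles: 10 arrays carried the letter I and 16 the letter B, which makes 26 of the 79 arrays of the study, 1 array per animal. The labels explain I as learning impaired and U as unimpaired, and they do not explain the letter B in this position. The submitters' stated total of 44 aged arrays is reached only when these 16 B arrays are not counted. Both groups were Fisher-344 rats (spelled as in the labels), had the same age and the same training, and were killed 24 h after their last trial. Another group of 13 rats of the same age and training, titled unimpaired, is given beside them for reference. The main cell layer of hippocampal field CA1 was taken with a 300 µm punch, and its RNA was amplified in 2 rounds before it was labelled with biotin and hybridised to an oligonucleotide array.

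In a water maze with a hidden platform, a rat learns the position of an escape platform from cues around the pool, a task that depends on the hippocampus. CA1 pyramidal neurons are the main output cells of the hippocampus. Lasting changes of their synapses draw on glutamate receptors, postsynaptic scaffold proteins, kinases and phosphatases, and on genes that are switched on for a short time by activity. In old rats the ability to learn this task varies widely between animals, which is why aged animals are often divided into impaired and unimpaired learners.

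The deposited value of a probe set is its linear hybridisation signal, and differences are given on the scale of log2(signal + 15), as impaired minus B with the standard error of the fit. On this scale the fold of a dim gene is smaller than the fold of its signal. A probe set or gene is said to have risen or fallen where the adjusted p of limma's moderated test (Benjamini-Hochberg over the 5244 probe sets tested) was under 0.05. Counts of genes cover 3233 genes, each represented by its brightest probe set on average. The p-values measure the spread between animals, and arrays of the same group came from different animals.

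The 2 groups differed as arrays before any gene was considered. The median Spearman correlation of an array with the other 78 lay between 0.898 and 0.936 on the B arrays, and between 0.853 and 0.933 on 8 of the impaired arrays. It was 0.445 on impaired array 8 and 0.223 on impaired array 83 (numbers are those of the animals). Defining transcripts of CA1 pyramidal neurons were low on the same arrays. The signal of Hpca, the calcium sensor hippocalcin, was 7849 to 17286 on the other 24 arrays, 3816 on array 8 and 273.8 on array 83, and that of Nrgn, the calmodulin-binding protein neurogranin, was 11774 to 26881, 6280 and 1668. All of the 24 arrays thus carried these CA1 markers at high signal. The transcript of Ttr, a choroid plexus marker, spanned 119.1 to 8384 over the 24 arrays, and that of Mbp, a myelin marker, 749.1 to 7080. Some transcripts outside the CA1 pyramidal list were low as well. Mbp stood at 156.1 on array 8, and at 743.1 on array 83, just under the lowest of the 24 arrays. Over the astrocyte markers the median deviation from the B mean was -2.08 log2 units on array 83. Calb1, from the dentate and CA3 list, stood at 808.3 and 784, against 1055 to 2165 on the 24 arrays. Since all 24 CA1 punches carried it, Calb1 cannot tell CA1 cells from others here. Ttr, at 1504 and 438.5, was within the range of the 24 arrays. Spike-in controls here were BioB, BioC, BioD and Cre, which are added in fixed amounts at the hybridisation step. They were brighter on the impaired arrays by 1.51 on the log2 scale (mean 11.94 ± 1.92, SD, n = 10, against 10.43 ± 0.717, n = 16, permutation test, 100000 resamples, two-sided, p = 0.00458, adjusted over 5 measures 0.0125). Without arrays 8 and 83 that difference was 1.21 (p = 0.00214 by the same permutation test, adjusted 0.0107), with 8 impaired arrays at 10.98 to 13.33. Only 2 of the 16 B arrays exceeded the lowest of those 8. The log2 ratio of control probes at the 3' and 5' ends of transcripts, a sign of RNA length, had a difference of -0.34 with all arrays and -0.01 without those (adjusted p = 0.408 and 0.999, permutation test). The part of these array differences in the gene results was not tested beyond fits that leave out arrays 8 and 83 or take spike-in brightness as a covariate.

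**Figure D1:**
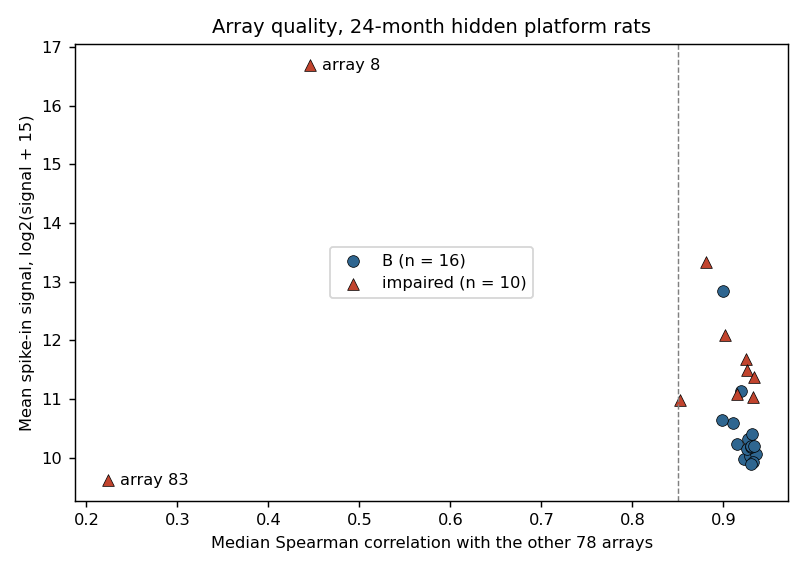
Each point is 1 array: impaired (triangles, n = 10) or B (circles, n = 16). The x axis is the median Spearman correlation of the array with the other 78 arrays, without a unit, and the y axis the average over 9 spike-in controls of log2(signal + 15); the dashed line marks a correlation of 0.85. Arrays 83 and 8 lie far to the left, and the other 8 impaired arrays lie at 10.98 to 13.33 on the y axis, above most B arrays.

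Between the groups, 629 of 5244 probe sets passed the threshold (12%). Of these, 325 were higher in impaired rats (6.2%) and 304 lower (5.8%). Per gene, 180 of 3233 rose (5.57%) and 216 fell (6.68%). The median difference over all genes was -0.02, with 1569 genes higher and 1664 lower. For none of the called genes were the signals of the 10 impaired and 16 B arrays fully separated. The fit without the arrays of correlation under 0.85 compared 8 impaired with 16 B arrays, and the spread was then taken from 51 of the 60 aged arrays. It called 490 probe sets (9.34%), with 250 rises and 240 falls; 307 of the first 629 were among them with the same sign. Per gene, this fit gave 142 rises (4.39%) and 162 falls (5.01%). Where only arrays 8 and 83 were left out, and the spread was still taken from all other aged arrays, 50 probe sets passed (18 rises, 32 falls). The difference of every named gene is the same in these 2 fits, since both compare the same 8 impaired and 16 B arrays; the fits differ in the spread, from which the first also drops 7 arrays of other aged groups. Of the 71 named genes called with all arrays, 49 passed in the first fit and 8 in the second, namely Arhgef4, Atn1, Dlgap4, Gstt2, Ppp1r1a, Prps1, Rps24 and Stx5; the others lost their call there, whatever their p without the arrays of low correlation. With spike-in brightness as a covariate 24 of the 71 passed: those 8 and B2m, Cacnb2, Cd55, Gabarap, Higd2a, Il1b, Ldhb, Map4k4, Nefl, Neurod2, Nr4a1, Ntsr2, Rpl6, Rtcb, Sf3b1 and Sst. Single arrays mattered in the same way: 187 probe sets passed without array 83 and 201 without array 8. The count was 402 without impaired array 50, and 382, 407 and 415 without B arrays 12, 90 and 13. The split between rises and falls depended on the scaling: 51.7% of the calls were rises with the deposited values, 47.2% after cyclic loess (316 calls), 23% after quantile normalization (413 calls) and 10.7% after median centring (1051 calls). The median over all probe sets was 0.03 with the deposited values, -0.18 after quantile normalization and -0.35 after median centring, so each direction below is relative to the scaling of the deposited values unless another is named.

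The difference moved with the brightness of the gene. The genes were divided by mean signal into 4 equal bins. Over the dimmest bin the median difference was 0.46, and 99 genes rose (12.2%) while 4 fell. Over the brightest bin it was -0.38, and 1 gene rose while 122 fell (15.1%). Without the arrays of low correlation the dimmest bin had a median of 0.21 with 41 rises and 16 falls, and the brightest -0.02 with 31 rises and 58 falls. After cyclic loess, which removes such a trend by construction, the medians were 0.04 and 0.00, with 14 rises and 23 falls in the dimmest bin and 21 and 34 in the brightest. Many dim genes among the rises and bright genes among the falls are therefore given below with a value under 1 or more of these alternatives. Where no such value is given, the call need not hold under them.

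**Figure D2:**
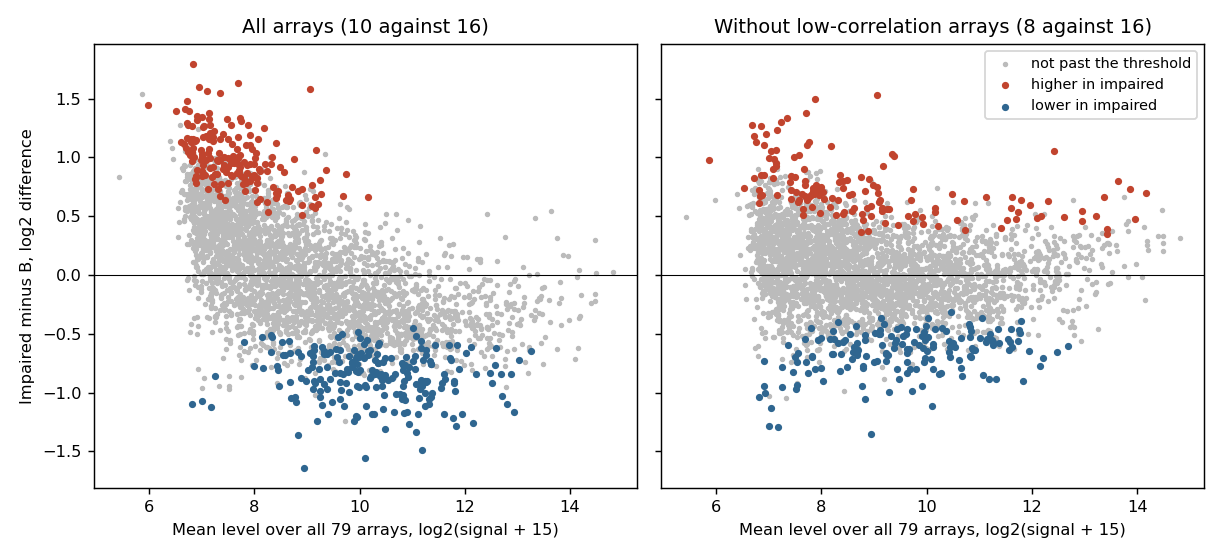
Each point is 1 of 3233 genes. The x axis is its mean log2(signal + 15) over all 79 arrays and the y axis its log2 difference, impaired minus B, with all arrays (left) and without the arrays of low correlation (right); coloured points passed the threshold. On the left, rises lie at low and falls at high mean signal; on the right, both directions occur over the whole range.

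The largest rises included genes of detoxification, complement control and signalling. The signal of Gstt2, a glutathione S-transferase of the theta class that conjugates glutathione to reactive compounds, was 162.3 to 610.9 in B rats (median 254.2) and 259.3 to 2897 in impaired rats (median 760.4). In 8 of 10 impaired rats it exceeded the highest B value, and arrays 8 and 83 (845.6 and 981.7) were not the extremes. The difference was 1.58 ± 0.31 (2.99-fold; adjusted p = 0.00139), 1.53 without the arrays of low correlation (adjusted p = 0.00239) and 1.53 with the spike-in covariate (adjusted p = 0.00605). Its other tested probe set rose by 1.00 ± 0.27 (adjusted p = 0.0149). Closely related transferases may share probe sequence, so the value may not be of Gstt2 alone. Cd55, decay-accelerating factor, which protects cells from complement, had signals of 24.6 to 106 in B rats (median 66) and 96.4 to 1071 in impaired rats (median 150.6). Again 8 of 10 impaired values lay above every B value, with array 83 the highest. Cd55 rose by 1.60 ± 0.34 (adjusted p = 0.00247) and by 1.20 without the arrays of low correlation (adjusted p = 0.00327); with only arrays 8 and 83 left out the same 1.20 had an adjusted p of 0.0652.

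Arhgef4, a guanine nucleotide exchange factor, had signals of 42 to 289.2 in B rats (median 72.4) and 129.6 to 1098 in impaired rats (median 309.8). The groups overlapped in part, and 5 of 10 impaired values exceeded the highest B value. It rose by 1.63 ± 0.34 (adjusted p = 0.00199; 1.38 and adjusted p = 0.00125 without the arrays of low correlation). Map4k4, a kinase upstream of the JNK pathway, rose by 1.55 ± 0.36 (adjusted p = 0.00475), from a B median of 54.6 (18.2 to 394.4) to an impaired median of 240.9 (98.8 to 518.6). Only 1 impaired value was above the highest B value, although all 10 exceeded the B mean, and with only arrays 8 and 83 left out the adjusted p was 0.0721. Sf3b1, a subunit of the spliceosome's U2 particle, had the largest difference, 1.79 ± 0.41 (adjusted p = 0.00475); array 83 stood at 2541 and the other 9 impaired arrays at 61.8 to 414.3, against 10.1 to 260.7 in B rats. Without the arrays of low correlation Sf3b1 rose by 1.26 (adjusted p = 0.027), and with only arrays 8 and 83 left out its adjusted p was 0.105.

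Among the 12 largest rises, 9 had all 10 impaired arrays above the B mean, and 11 passed without the arrays of low correlation, but 2 (Arhgef4 and Gstt2) with only arrays 8 and 83 left out. The exception in the first of these fits was Cyp11b2, aldosterone synthase, at 1.45 ± 0.50 with all arrays (adjusted p = 0.0476) and 0.64 without them (adjusted p = 0.262). Its signal was 3282 on array 83 and 510.3 on array 8, against a B median of 23.6. Both arrays count in the mean signal of the filter, and whether Cyp11b2 would pass the filter without them was not tested. The rises of Chrna4, the alpha-4 subunit of nicotinic acetylcholine receptors (1.41 ± 0.37), and Pecam1, an adhesion molecule of endothelial cells (1.38 ± 0.33), did not depend on any single array, but had adjusted p of 0.0833 and 0.105 with only arrays 8 and 83 left out. The remaining ones did. Nek9, a kinase of the mitotic spindle (1.56 ± 0.41), had an adjusted p of 0.0556 without array 83 and 0.0528 without array 8. Akr1c14, a hydroxysteroid dehydrogenase (1.48 ± 0.40), stood at 0.0634 without array 83. Or1e18, an olfactory receptor whose family is large and similar in sequence (1.39 ± 0.41), stood at 0.0897 without array 8. Homer3, a scaffold protein that binds metabotropic glutamate receptors (1.39 ± 0.38), stood at 0.0726 without array 83 and 0.0581 without array 8. With the spike-in covariate 5 of the 12 passed, namely Sf3b1, Arhgef4, Cd55, Gstt2 and Map4k4, and after cyclic loess 9 passed.

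The largest falls included postsynaptic, vesicle and housekeeping genes of high signal. Dlgap4, a scaffold protein of the postsynaptic density that binds the PSD-95 family, had signals of 851.9 to 3640 in B rats (median 1924) and 107.6 to 1638 in impaired rats (median 773.1). In 7 of 10 impaired rats the value was below the lowest B value. It fell by 1.56 ± 0.29 (2.94-fold; adjusted p = 0.00073), by 1.11 without the arrays of low correlation (adjusted p = 0.00552) and by 1.53 with the spike-in covariate (adjusted p = 0.00418). Its other probe set differed by -0.64 ± 0.30 (adjusted p = 0.125), and by -0.88 without those arrays (adjusted p = 0.0382). Gabarap, a ubiquitin-like protein of autophagy and GABA-A receptor transport, was lower in 9 of 10 impaired rats than in any B rat (129.6 to 3086 against 2885 to 5102). Gabarap fell by 1.49 ± 0.31 (adjusted p = 0.00199) and by 0.89 without the arrays of low correlation (adjusted p = 0.00139; 0.0574 with only arrays 8 and 83 left out).

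Atn1, atrophin-1, a transcriptional corepressor, had the largest fall, 1.64 ± 0.33 (adjusted p = 0.00193), from a B median of 890.4 (121.8 to 1441) to an impaired median of 261.9 (58.1 to 595.4). The lowest B value lay far below the other B values, and only 1 impaired value was beneath it. Without the arrays of low correlation Atn1 fell by 1.36 (adjusted p = 0.00581). Prps1, which makes the sugar phosphate for nucleotide synthesis, fell by 1.24 ± 0.27 (adjusted p = 0.00251; impaired median 689.1, B median 1444), and 5 impaired values were below every B value. Higd2a, an assembly factor of the respiratory chain, fell by 1.33 ± 0.31 (adjusted p = 0.00458), and Rtcb, the catalytic subunit of the tRNA ligase complex, by 1.31 ± 0.29 (adjusted p = 0.0037). For Rtcb, array 8 stood at 35.3 and array 83 at 193.6, against 998.3 to 1654 on the other impaired arrays and 1068 to 2925 on the B arrays. Without the arrays of low correlation Rtcb fell by 0.58 (adjusted p = 0.021, and 0.0729 with only arrays 8 and 83 left out). Its other probe set was at -0.52 (adjusted p = 0.252).

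Of the 12 largest falls, 9 had all 10 impaired arrays below the B mean, and 10 passed without the arrays of low correlation, but 3 (Atn1, Dlgap4 and Prps1) with only arrays 8 and 83 left out. In the first of these fits Nfix, a transcription factor of the nuclear factor I family, did not pass (-1.27 ± 0.37 with all arrays, -0.48 and adjusted p = 0.207 without them), nor did Ube2g2, a ubiquitin-conjugating enzyme of the endoplasmic reticulum (-1.24 ± 0.37, and -0.89 with adjusted p = 0.0942). The adjusted p of Nfix was 0.09 without array 83 and 0.107 without array 8, and that of Ube2g2 was 0.0765, 0.0904 and, without array 50, 0.0644. The other probe sets of Nfix were at -0.34 (adjusted p = 0.17) and -0.13 (adjusted p = 0.798). Ap2s1, the small subunit of the AP-2 clathrin adaptor, fell by 1.36 ± 0.42 and its other probe set by 1.13 ± 0.37; the adjusted p was 0.056, 0.0644 and 0.106 without array 50, 83 or 8. Uchl1, a ubiquitin hydrolase abundant in neurons, fell by 1.26 ± 0.37, and its 2 other probe sets differed by -1.05 (adjusted p = 0.0328) and -1.02 (adjusted p = 0.116); without array 83 or 8 the adjusted p was 0.0909 or 0.0834. Gaa, the lysosomal enzyme that degrades glycogen, fell by 1.21 ± 0.32 and stood at 0.0606 without array 83 and 0.0652 without array 8. With the spike-in covariate 7 of the 12 falls passed, and after cyclic loess 8 did.

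**Figure D3:**
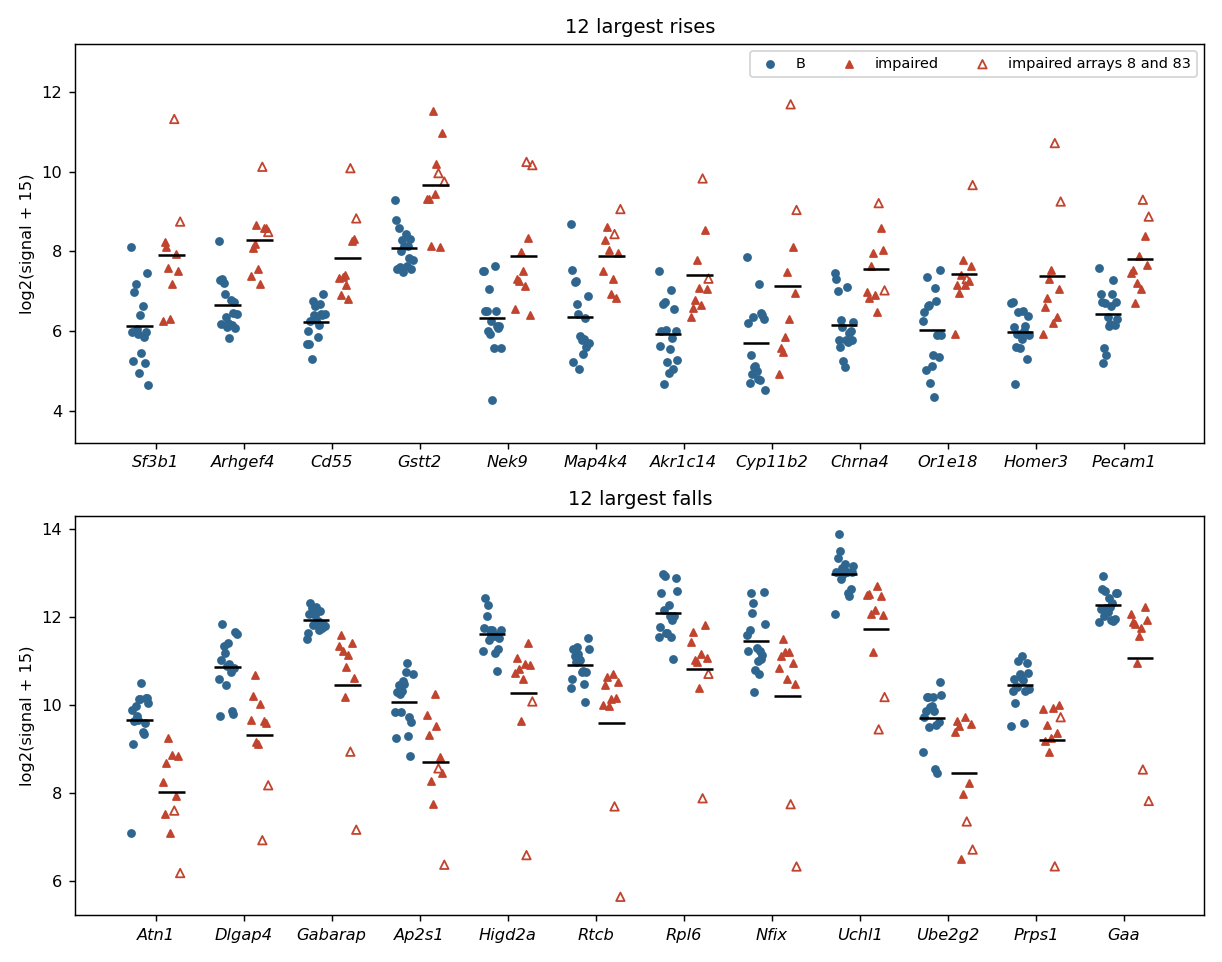
Each point is log2(signal + 15) of 1 array for the 12 largest rises (top) and 12 largest falls (bottom); circles are B (n = 16), triangles impaired (n = 10), open triangles impaired arrays 8 and 83, and bars the group means. For most rises array 83 or array 8 is the highest point and for most falls the lowest, while the other 8 impaired arrays also lie mostly on the same side of the B mean.

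Rbl2, Arhgef4, Stx5 and Dlgap4 had the smallest adjusted p among rises and falls that have a promoter entry, a choice made after their values were seen, and the 120 bases before their start sites are shown so that the promoters of the genes that moved can be compared. Rbl2, the retinoblastoma-like protein p130, which holds cells out of the cell cycle, rose by 1.06 ± 0.19 (adjusted p = 0.000451; 0.93 and adjusted p = 0.00018 without the arrays of low correlation), with all 10 impaired arrays above the B mean. Stx5, a syntaxin that guides vesicle fusion at the Golgi, fell by 0.97 ± 0.18 (adjusted p = 0.00063), and 9 of 10 impaired values (154.2 to 753.8) were below the lowest B value (646 to 1285 in B rats). Its other probe set differed in the opposite direction, 1.00 ± 0.40 (adjusted p = 0.0829). The sequences are RefSeq's for the GRCr8 assembly, 5′ to 3′ on the gene's strand, from chr19:32096412-32096531 (minus strand, Rbl2), chr9:44357638-44357757 (plus, Arhgef4), chr1:215066412-215066531 (plus, Stx5) and chr3:165584240-165584359 (plus, Dlgap4), each just upstream of the start of transcription. Capitals mark the GC box GGGCGG, bound by Sp1-type factors, the core TGACG of the cyclic AMP response element, and the CCAAT box CCAAT, each on either strand.
Rbl2: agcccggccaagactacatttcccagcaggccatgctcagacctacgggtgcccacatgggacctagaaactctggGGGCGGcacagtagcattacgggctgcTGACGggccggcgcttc
Arhgef4: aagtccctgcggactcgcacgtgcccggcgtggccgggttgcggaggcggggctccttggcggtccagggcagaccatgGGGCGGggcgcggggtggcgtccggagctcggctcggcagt
Stx5: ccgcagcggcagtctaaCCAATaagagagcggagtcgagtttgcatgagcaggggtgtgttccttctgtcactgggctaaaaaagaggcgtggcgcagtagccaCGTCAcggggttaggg
Dlgap4: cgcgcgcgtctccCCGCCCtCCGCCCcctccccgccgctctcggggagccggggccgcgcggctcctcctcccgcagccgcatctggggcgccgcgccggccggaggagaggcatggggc

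The GC content of these stretches was 63.3% for Rbl2, 76.7% for Arhgef4, 57.5% for Stx5 and 84.2% for Dlgap4. Over 250 bases upstream, for the 2653 of 3233 tested genes with a RefSeq promoter, GGGCGG on either strand was in 58.6% of all tested genes, 47.5% of the 141 that rose and 65.2% of the 187 that fell. The core TGACG on either strand was in 27.8%, 19.1% and 32.1%, and in 26.8% of the rises and 37.9% of the falls called without the arrays of low correlation. The sequence TATAAA on either strand was in 9.2%, 13.5% and 8.56%, and CCAAT in 35.5%, 37.6% and 36.9%. The brightness of a gene goes with the same letters: GGGCGG was in 52.8% of the tested genes with a mean log2 signal under 8.71 and in 64.4% of those above it. Of all 27457 promoters in the table, 32.4% held GGGCGG and 19% held TGACG. These shares describe letters in a window and are not evidence of binding.

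Ppp1r1a, the inhibitor of protein phosphatase 1 that is active when phosphorylated by protein kinase A, fell from a B median of 3018 (1368 to 5945) to 1183 (572.9 to 3074), with 6 impaired values under every B value. Its difference was -1.10 ± 0.23 (adjusted p = 0.00245) and -0.89 without the arrays of low correlation (adjusted p = 0.00817); its other probe set fell too (adjusted p = 0.0215). Ppp1r9b, spinophilin, which anchors that phosphatase in spines, fell by 0.75 ± 0.21, lost its call without array 8 (-0.57, adjusted p = 0.0767), and its other probe set was at 0.70 (adjusted p = 0.166). These were the 2 falls among 33 measured kinases and phosphatases of plasticity, none of which rose; the falls are 6.06% of the list, beside 6.68% of all genes. The list's median was -0.27; without the arrays of low correlation it was -0.01, with 3 rises and 1 fall. None of 14 ionotropic or 5 metabotropic glutamate receptor genes passed the threshold. Grin2b, an NMDA receptor subunit, was at 0.34 ± 0.17 (adjusted p = 0.15) and Gria2, an AMPA receptor subunit, at -0.50 ± 0.29 (adjusted p = 0.219). Dlg2, a PSD-95 relative (PSD-93), rose by 1.07 ± 0.26 (adjusted p = 0.00725) and Mpp2, another membrane-associated scaffold, by 1.07 ± 0.23 (adjusted p = 0.00247), both outside the rule for naming and chosen after their values were seen.

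Of 28 immediate early genes, which neurons switch on shortly after activity, none rose and 2 fell (7.14%, beside 6.68% of all genes). Nr4a1, an orphan nuclear receptor, had a median signal of 1094 in impaired rats (224.6 to 1573) and 1785 in B rats (977.9 to 2972), and 4 impaired values were below every B value. It fell by 0.95 ± 0.23 (adjusted p = 0.0073; -0.66 and adjusted p = 0.0303 without the arrays of low correlation). Its other probe set was at -0.43 (adjusted p = 0.172). Sgk1, a kinase induced by glucocorticoids, fell by 0.69 ± 0.24 (adjusted p = 0.0492) and had an adjusted p over 0.05 in 19 of the fits that left out 1 array. The list's median was 0.09 with 16 genes higher and 12 lower. Tissue was taken 24 h after the last trial. Of 7 corticosteroid and stress genes, 1 rose (14.3%, beside 5.57% of all genes) and 2 fell (28.6%, beside 6.68%). Crhbp, which binds corticotropin-releasing hormone, rose by 1.01 ± 0.28 (0.85 and adjusted p = 0.0618 without array 8). Sgk1 and Nr3c1, the glucocorticoid receptor, fell. The fall of Nr3c1, 0.62 ± 0.19, had an adjusted p of 0.0824 without array 83 and 0.0998 without array 8, and its other probe set was at 0.37 (adjusted p = 0.276).

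Receptors for monoamines, histamine and acetylcholine were mostly higher in impaired rats. Of 30 measured genes 6 rose (20%, beside 5.57% of all genes and 12.2% of the dimmest bin) and none fell, 26 were higher, and the median was 0.60, against -0.02 over all genes. The list is dim, with a median of 7.63 on the log2 scale, and dim genes as a whole were higher (0.46 in the dimmest bin). Without the arrays of low correlation 28 of 30 were higher with a median of 0.37 and 3 rises, and after cyclic loess the median was 0.26 with 3 rises. The level of the list on each array, as the median deviation from the B mean, was -0.41 to 0.32 in B rats and -0.02 to 1.63 in impaired rats, and up to 0.98 without arrays 8 and 83. Adrb3, an adrenergic receptor, rose by 0.99 ± 0.25 (adjusted p = 0.0109) from a B median of 296.5 to 581.8, with 6 impaired values above every B value, and kept its call without the arrays of low correlation (0.83, adjusted p = 0.0174), though not with only arrays 8 and 83 left out (adjusted p = 0.115). Chrna4 had medians of 47.6 and 148.6 and rose by 1.27 without those arrays (adjusted p = 0.00671; after cyclic loess 0.0539). Adra2a, an inhibitory adrenergic receptor, rose by 1.15 ± 0.34 and stood at an adjusted p of 0.085 without array 83 and 0.0897 without array 8. With the spike-in covariate none of the 30 passed.

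Of 12 GABA-A and glycine receptor genes, 3 rose (25%) and 1 fell (8.33%). Over all genes 5.57% rose and 6.68% fell, and 7.55% rose in the second dimmest bin, which holds the list's median signal. Gabra2, the alpha-2 subunit, had signals of 107.8 to 282 in B rats and 135.9 to 1188 in impaired rats, 6 of them above every B value, and rose by 1.10 ± 0.28 (adjusted p = 0.00945; 0.72 and adjusted p = 0.0208 without the arrays of low correlation). Its adjusted p was 0.182 with only arrays 8 and 83 left out and 0.0747 with the spike-in covariate, with which none of the 12 passed. Gabra3 rose by 0.97 ± 0.30 and lost its call without impaired arrays 50 (adjusted p = 0.0589), 83 (0.0812) or 8 (0.0696) or B array 12 (0.0509). Gabrd, the delta subunit of receptors outside synapses, fell by 0.79 ± 0.24, with an adjusted p of 0.0589 without array 83 and 0.105 without array 8, and its other probe set was at 0.18 (adjusted p = 0.686). The list's median was 0.21 and turned to -0.10 after cyclic loess, -0.12 after quantile normalization and -0.18 after median centring. Among 26 synaptic vesicle and fusion genes Stx5 fell and Stx7, a syntaxin of endosomes, rose by 0.95 ± 0.28 (0.65 and adjusted p = 0.104 without array 83). Each is 3.85% of that list. Of 27 voltage-gated channel genes, 2 rose and 2 fell (7.41% each, beside 5.57% and 6.68% of all genes). Cacnb2, a beta subunit of voltage-gated calcium channels, fell by 1.14 ± 0.24 (adjusted p = 0.00245), from a B median of 2067 to 1241. Without the arrays of low correlation it fell by 0.62 (adjusted p = 0.00874, and 0.0637 with only arrays 8 and 83 left out). Its other probe set was at -0.65 (adjusted p = 0.0945). The sodium channel genes Scn8a and Scn2a differed by 0.77 ± 0.23 and -0.88 ± 0.28. Scn8a had an adjusted p of 0.0696 without array 8. Scn2a had one of 0.144 without array 8, 0.111 without array 83, 0.0605 without array 50 and 0.0525 without B array 90.

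Of 37 neurotrophin and growth factor genes and their receptors, 4 rose (10.8%, beside 5.57% of all genes and 7.55% of the second dimmest bin, which holds its median signal) and 1 fell, and after cyclic loess none rose and 2 fell. The median was 0.36 (0.19 without the arrays of low correlation, 0.13 after cyclic loess, -0.03 after median centring). Ntrk2, the receptor of brain-derived neurotrophic factor, fell by 0.95 ± 0.26 (adjusted p = 0.0144), from a B median of 1632 to 896. Its adjusted p was 0.0621 without array 83 and 0.0556 without array 8, and 0.0304 with both and the other arrays of low correlation left out. Vegfa, a growth factor of blood vessels, rose by 0.91 ± 0.26 with all 10 impaired arrays above the B mean; its adjusted p was 0.0634 without array 83 and 0.0624 without array 8. Met, the receptor of hepatocyte growth factor, rose by 1.26 ± 0.39 and stood at 0.0968 and 0.105 in the same fits.

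Metabolic and protein synthesis genes of high signal were mostly lower in impaired rats, as were genes of the brightest bin in general (median -0.38). The medians of these lists lay nearer 0 without arrays 8 and 83. Of 36 cytosolic ribosomal protein genes 31 were lower, 6 fell (16.7%, beside 15.1% of the brightest bin) and 1 rose, with a median of -0.48 and of -0.23 without the arrays of low correlation (2 rises, 5 falls) and -0.11 after cyclic loess. The level of the list was -2.68 on array 83, -0.70 on array 8, -0.53 to 0.44 on the 8 other impaired arrays and -0.43 to 0.53 on the B arrays. Rpl6 fell by 1.28 ± 0.30 (adjusted p = 0.00571; -0.91 and 0.0166 without the arrays of low correlation), and its other probe set was at -0.67 (adjusted p = 0.134). Rps24 rose by 1.28 ± 0.33 (adjusted p = 0.012), with 6 impaired values above every B value, and also rose without the arrays of low correlation (adjusted p = 0.00327). After cyclic loess its adjusted p was 0.0645. Its probe set was dim for this list, at a mean of 7.87 on the log2 scale beside a list median of 11.83. The B median signal of Rps24 was 167 and the impaired median 302.9. Ribosomal protein genes have many processed copies in the genome, so their probe sets may read more than 1 locus. Of 45 subunits of oxidative phosphorylation 33 were lower and 3 fell (Atp5pb, Atp5pf and Ndufb5), with a median of -0.21. The falls are 6.67% of the list, beside 6.68% of all genes and 15.1% of the brightest bin. Without the arrays of low correlation the median was 0.16, 28 of 45 were higher, 6 rose and 1 fell, so the direction turned, as it did after cyclic loess (0.16). Atp5pb, a subunit of the ATP synthase stalk, was at -0.90 ± 0.24 (-0.63 and adjusted p = 0.0677 without array 83), and it fell by 0.55 without the arrays of low correlation (adjusted p = 0.0267).

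Of 20 glycolysis and lactate genes 4 fell (20%, beside 6.68% of all genes and 15.1% of the brightest bin, which holds its median signal) and none rose. The median was -0.31, beside -0.38 over that bin, and -0.12 without the arrays of low correlation. Ldhb, the lactate dehydrogenase subunit of oxidative tissues, had medians of 7319 in B and 4115 in impaired rats, with 5 impaired values below every B value. It fell by 0.84 ± 0.20 (adjusted p = 0.00563) and by 0.60 without the arrays of low correlation (adjusted p = 0.00413; 0.0511 with only arrays 8 and 83 left out, and 0.116 after cyclic loess), and its other probe set was at -0.89 (adjusted p = 0.0364). Pdha1, a subunit of pyruvate dehydrogenase, was at -0.95 ± 0.27, and -0.70 without array 83 (adjusted p = 0.0812) or -0.80 without array 8 (0.068). Of 25 proteasome and ubiquitin genes 4 fell (16%, beside 15.1% of the brightest bin, which holds its median signal) and 1 rose (4%). Psmc3, an ATPase of the proteasome's regulatory particle, fell by 0.85 ± 0.23 (adjusted p = 0.0144) and by 0.80 without the arrays of low correlation (adjusted p = 0.00738). It lost its call with the spike-in covariate (adjusted p = 0.112), after cyclic loess (0.0665) and with only arrays 8 and 83 left out (0.0933), with impaired arrays 8 and 83 (620.2 and 500.8) inside the range of the other impaired arrays (385.7 to 909). Psmd2, a large subunit of the same particle, was at -1.16 ± 0.32, and -0.84 without array 83 (adjusted p = 0.0757). The median of the proteasome and ubiquitin list was -0.31, beside -0.38 over the brightest bin, and -0.03 without the arrays of low correlation. Of 28 antioxidant and glutathione genes 5 rose (17.9%) and none fell, although the list's median was -0.16. Over all genes 5.57% rose, and 2.35% did in the second brightest bin, which holds the list's median signal. Besides Gstt2 the rises included Gpx3, a secreted glutathione peroxidase (0.69 ± 0.22), and Gstm2, another glutathione transferase (0.88 ± 0.29). The other probe set of Gstm2 was at 0.75 (adjusted p = 0.1). Gpx3 had an adjusted p of 0.0619 without array 83, 0.107 without array 8, 0.0624 without array 50 and 0.0587 without array 87, and Gstm2 lost its call without any of 9 single arrays. None of 20 heat shock genes passed with all arrays, and the list's median of 0.01 became 0.26 without the arrays of low correlation, with 19 of 20 higher.

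Of 23 cytoskeleton and axon growth genes 5 fell (21.7%, beside 15.1% of the brightest bin) and 1 rose, with a median of -0.53, of -0.18 without the arrays of low correlation and of -0.21 after cyclic loess. Nefl, the light neurofilament chain, fell by 0.85 ± 0.21 (adjusted p = 0.00918; -0.46 and adjusted p = 0.0406 without the arrays of low correlation), from a B median of 3687 to 2740. Its other probe set was at -0.31 (adjusted p = 0.479). Dpysl2, a collapsin response mediator protein of growing axons, rose by 1.27 ± 0.32 (adjusted p = 0.00918), and by 1.23 without those arrays (adjusted p = 0.00735). Its adjusted p was 0.063 with only arrays 8 and 83 left out, 0.0611 with the spike-in covariate and 0.0939 after cyclic loess. All 10 impaired values of Dpysl2 (90.1 to 297.4) lay above the B median of 64.2, but none above the highest B value of 412.6. The microtubule protein gene Map1a was at -0.94 ± 0.29, and -0.55 without array 8 (adjusted p = 0.14).

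Markers of cell types were compared because a punch can hold different shares of cells, and in such bulk RNA fewer cells of a type and less RNA per cell cannot be told apart. Of 13 CA1 pyramidal markers 11 were lower, with a median of -0.56, but 1 fell (7.69%, beside 6.68% of all genes) and none rose. Without the arrays of low correlation the median was -0.06. Their level, as the median deviation from the B mean, was -3.23 on array 83, -0.99 on array 8, -0.29 to 0.12 on the 8 other impaired arrays and -0.23 to 0.36 on the B arrays. The marker that fell was Neurod2, a transcription factor of excitatory neurons, at -1.11 ± 0.27 (adjusted p = 0.00868), with a B median of 946.2 (415.9 to 1724) and an impaired median of 467.1 (154.3 to 659), and at -0.99 without the arrays of low correlation (adjusted p = 0.0101; 0.0721 with only arrays 8 and 83 left out). Hpca was at -0.83 ± 0.34 (adjusted p = 0.0823) and -0.17 without them (adjusted p = 0.32). None of 8 dentate and CA3, 16 oligodendrocyte or 6 choroid plexus markers passed; their medians were -0.01, -0.15 and 0.17. Without the arrays of low correlation 1 dentate and CA3 marker rose, 1 oligodendrocyte marker rose and 1 fell, and the medians were 0.12, 0.06 and 0.15. Of 16 interneuron markers 3 fell (18.8%) and 1 rose (6.25%), with 7 higher and 9 lower. The list's median was -0.25, and it was -0.05 without the arrays of low correlation and -0.02 after cyclic loess. Over all genes 6.68% fell and 5.57% rose, and 9.41% fell in the second brightest bin, which holds the list's median signal. The falls were Sst, somatostatin (-0.90 ± 0.24, other probe set 0.06), Npy, neuropeptide Y (-0.67 ± 0.21), and Tac3, a tachykinin (-0.68 ± 0.23). Sst was at -0.63 (adjusted p = 0.0678) without array 83. Without array 8, Npy was at -0.51 (adjusted p = 0.12) and Tac3 at -0.53 (adjusted p = 0.142). Npy and Tac3 also lost their calls without several other single arrays. Without the arrays of low correlation the adjusted p was 0.0834 for Sst, 0.182 for Npy and 0.0144 for Tac3. With only arrays 8 and 83 left out it was 0.199, 0.33 and 0.099.

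Of 21 astrocyte markers 2 fell (9.52%, beside 6.68% of all genes and 15.1% of the brightest bin) and 1 rose (4.76%). The list's median of -0.22 turned to 0.20 without the arrays of low correlation and 0.07 after cyclic loess. Ntsr2, a neurotensin receptor of astrocytes, fell by 0.97 ± 0.23 (adjusted p = 0.00645; -0.55 and 0.0367 without those arrays), and 8 of 10 impaired values were below every B value. Of 21 microglia and complement genes 1 rose (4.76%, beside 5.57% of all genes). It was Il1b, the inflammatory cytokine interleukin-1 beta, with signals of 35.4 to 167.9 in B rats (median 69) and 119.8 to 1237 in impaired rats (median 168.6). Array 8 had the highest value and 5 impaired values exceeded the B range. Il1b rose by 1.34 ± 0.30 (adjusted p = 0.0037), by 0.99 without the arrays of low correlation (adjusted p = 0.00474; 0.0721 with only arrays 8 and 83 left out) and by 1.03 with the spike-in covariate (adjusted p = 0.0333). Aif1, a marker of microglia, was at -0.86 ± 0.31 (adjusted p = 0.0527) and fell by 0.94 without the arrays of low correlation (adjusted p = 0.0221), with its other probe set at 0.30 (adjusted p = 0.43). Cd14, a receptor of bacterial products, was at 0.73 ± 0.26 (adjusted p = 0.0509) and rose by 0.57 without them (adjusted p = 0.0462), with its other probe set at 0.40 (adjusted p = 0.164). With only arrays 8 and 83 left out neither passed (adjusted p = 0.153 for Aif1 and 0.301 for Cd14). Among 13 genes of MHC class I and interferon responses 1 rose and 1 fell (7.69% each, beside 5.57% and 6.68% of all genes). B2m, the light chain of MHC class I, fell by 1.03 ± 0.24 (adjusted p = 0.00563) from a B median of 3543 to 1841, and by 0.58 without the arrays of low correlation (adjusted p = 0.0123; 0.105 with only arrays 8 and 83 left out); Psmb8, an immunoproteasome subunit, was at 1.14 ± 0.36 and 0.57 (adjusted p = 0.219) in the 2 fits.

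Of 16 endothelial, mural and blood markers 13 were higher with a median of 0.45, and 2 rose (12.5%). Over all genes 5.57% rose, and 7.55% did in the second dimmest bin, which holds the list's median signal. The median was 0.24 without the arrays of low correlation, 0.39 after cyclic loess and 0.06 after median centring. Pecam1 had signals of 21.9 to 176 in B rats (median 75.3) and 88.8 to 612.7 in impaired rats (median 179.1), and rose by 1.06 without the arrays of low correlation (adjusted p = 0.00552). Kcnj8, a potassium channel of mural cells, was at 1.07 ± 0.33, and lost its call without array 83 (adjusted p = 0.0798), array 8 (0.115) or B array 13 (0.0503). The level of the list was -0.29 to 0.53 on B arrays, -0.07 to 0.66 on the 8 other impaired arrays, and up to 1.70 with arrays 8 and 83 included, so the groups overlapped.

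**Figure D4:**
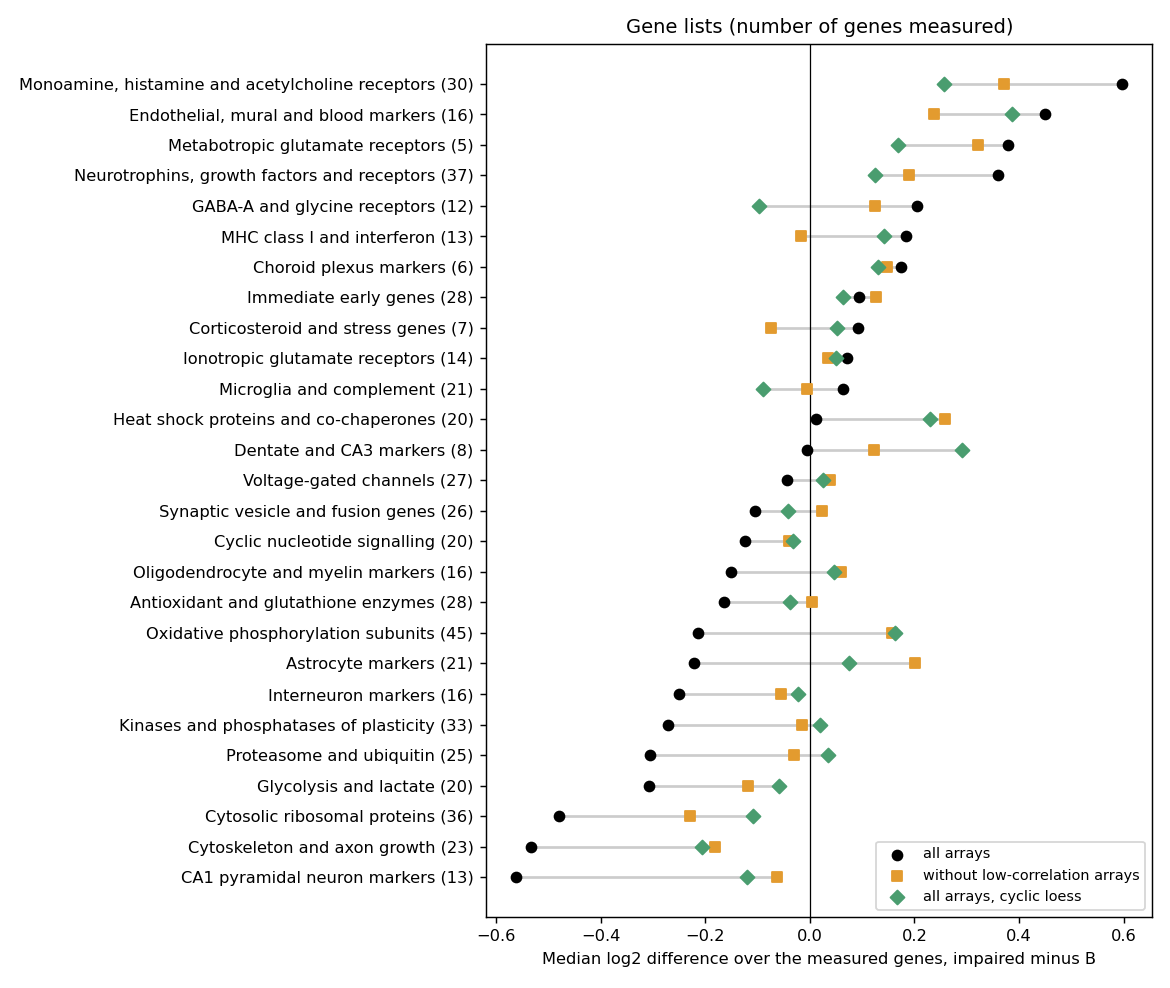
Each row is a gene list with the number of genes measured; the x axis is the median log2 difference over its genes, impaired minus B, with all arrays (black circles), without the arrays of low correlation (squares) and with all arrays after cyclic loess (diamonds). Lists at the bottom, such as CA1 markers (-0.56, -0.06 and -0.12), move towards 0, and the monoamine, histamine and acetylcholine receptors (0.60, 0.37 and 0.26) have the highest median with all arrays.

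**Figure D5:**
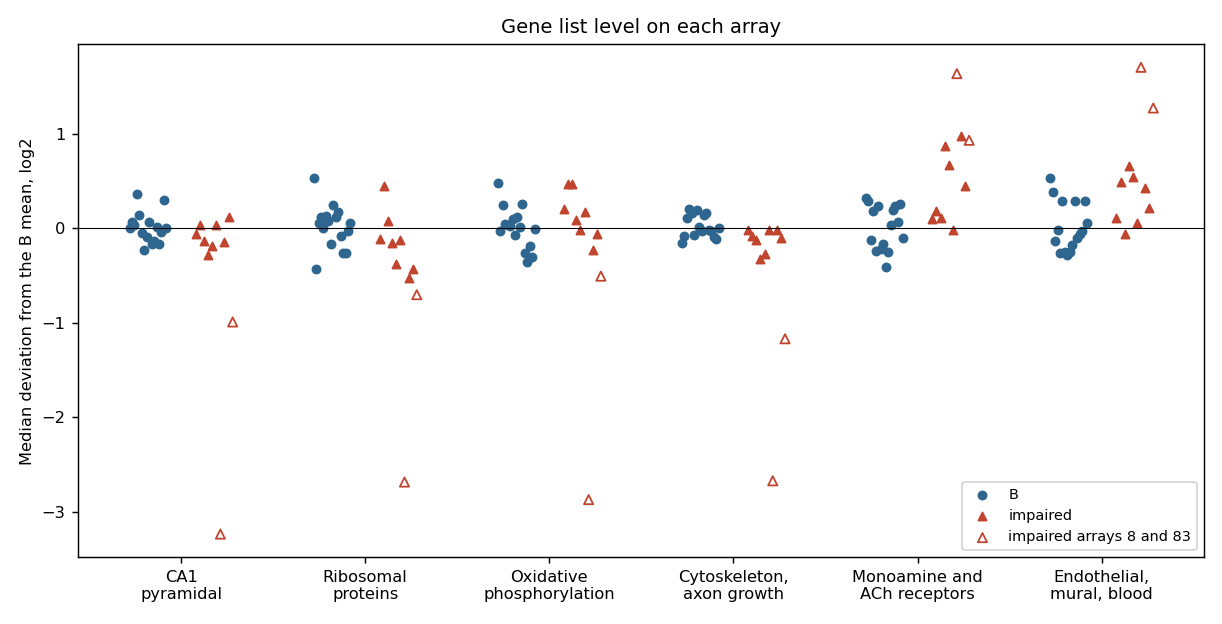
Each point is the median deviation from the B mean, in log2 units, over the genes of a list on 1 array; circles are B (n = 16), triangles impaired (n = 10), open triangles impaired arrays 8 and 83. Array 83 has the lowest point for the CA1 pyramidal markers, at -3.23, and the other 8 impaired arrays lie between -0.29 and 0.12, within the spread of the B arrays apart from the lowest.

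In all, 47 of the 396 called genes (11 rises, 36 falls) passed in each of 5 further fits as well: without the arrays of low correlation, after cyclic loess, with both of these, with animal number range as a block, and with the spike-in covariate. The rises were Gstt2, Arhgef4, Cd55, Map4k4, Il1b, Rbl2, Dlg2, Mpp2, Pla2g4a, Cyp2a2 and Pdcd10. Pla2g4a, the cytosolic phospholipase that releases arachidonic acid, rose by 1.16 ± 0.25, and Cyp2a2, a liver-type cytochrome P450 with close relatives, by 1.31 ± 0.28. The falls included Synj1, a phosphatase of synaptic vesicle recycling (-1.18 ± 0.27), Nrxn3, a presynaptic adhesion molecule (-0.91 ± 0.20), and the calcium transporters Slc8a1 (-0.99 ± 0.23) and Atp2b3 (-0.89 ± 0.20). They also included Srpk2, a kinase of splicing factors (-1.18 ± 0.28), and Ndn, necdin (-1.08 ± 0.26). These genes lie outside the rule for naming and were chosen after their values were seen. With only arrays 8 and 83 left out, 22 of the 396 kept their call, 18 of these 47 among them; Rbl2 and Cyp2a2 did, while Dlg2, Mpp2, Pla2g4a, Synj1, Nrxn3, Slc8a1, Atp2b3, Srpk2 and Ndn had adjusted p of 0.0511 to 0.134.

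Within ranges of animal numbers, which the labels do not call batches, the differences kept their sign for most called genes. In animals 41 to 69 (7 impaired, 3 B) 393 of 396 called genes had the sign of the full fit, with a median size of 0.60 against 0.90 in the full fit. In animals 70 to 100 (2 impaired, array 83 among them, and 5 B) 394 of 396 did, with a median of 1.62. The called genes were chosen on these same arrays, so this is no independent support. The lowest range held 1 impaired and 8 B arrays and gives no value of its own. A fit on the hidden platform arrays 41 to 69 alone called 14 probe sets, and a fit over all aged arrays with range as a block called 814.

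Genes with several tested probe sets gave a second reading. For the called genes, 105 other probe sets were tested; 82 of them (78.1%) had the sign of the call, 19 were called in the same direction and 1 in the opposite one. Their median size in the direction of the call was 0.48, against 0.90 for the called ones. The smallest adjusted p of the comparison, 1.2e-05, belonged to a second probe set of Sparc, a matrix protein of astrocytes and vessels, at -1.57 ± 0.23, whose brightest probe set was at -0.22 (adjusted p = 0.632). Likewise, a second probe set of Ina, the neuronal intermediate filament alpha-internexin, fell by 1.64 ± 0.29 (adjusted p = 0.000451), and its brightest was at -0.67 (adjusted p = 0.153). Among probe sets without a symbol, rc_AI014135_g_at rose by 3.21 ± 0.89 (adjusted p = 0.0162; 2.70 and 0.00552 without the arrays of low correlation) and rc_AA925529_at by 1.71 ± 0.38. X06423_at fell by 1.19 ± 0.30 and J00797cds_s_at by 1.21 ± 0.43, the last at -0.33 (adjusted p = 0.446) without the arrays of low correlation.

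Against the same B rats, 3 of 5244 probe sets passed in unimpaired rats (0.0572%) and 376 had an unadjusted p under 0.05; both comparisons share the 16 B arrays. The 3 were the second probe sets of Sparc (-1.33 ± 0.21) and Ina (-1.23 ± 0.26) and rc_AA957961_at (1.13 ± 0.24). For Gstt2 the unimpaired median signal was 456.6 and the difference from B 0.90 ± 0.29 (adjusted p = 0.279), beside 1.58 in impaired rats. For Dlgap4 it was 1064, with a difference of -0.86 ± 0.27 (adjusted p = 0.274) beside -1.56. For Rps24 the difference from B was 1.12 ± 0.31 (adjusted p = 0.214) beside 1.28, and for Rpl6 it was -0.07 ± 0.28 (adjusted p = 0.993) beside -1.28. Between unimpaired and B rats, 87 probe sets passed in the fit that drops the arrays of low correlation. The difference between the impaired and the unimpaired group was not tested here.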

How the data were processed

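The deposited values are linear hybridisation intensity values, 1 per probe set and array, that the authors made with MAS5 per the submitters' processing notes. For its version, the genome build and the probe sequences, the entry is "not given in the sources used". Trimmed means of 500.09 to 500.98 on every array (2% left out at each end) show a common scaling of the arrays. The 8799 probe sets include 59 controls, which were dropped. Of all 8799, controls included, 7018 had 1 gene symbol and 308 several in GEO's platform annotation. Without the controls, 1426 had none. Through RefSeq 6994 symbols were updated. No 2 arrays of the comparison were identical, and their highest pairwise Spearman correlation was 0.967.

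The values were turned into log2(signal + 15), and the dimmest 40% by mean signal were dropped, leaving 5244 probe sets. limma 3.58.1 (R 4.3.3; lmFit, and eBayes with a trend) was fitted to the 60 aged arrays with 1 mean per group, and the contrast of impaired and B was tested with Benjamini-Hochberg adjustment over all 5244. Array measures were compared with a two-sided permutation test of 100000 resamples (Python 3.11.15, SciPy 1.17.1, pandas 2.3.3). The fit was also run on simulated data with independent noise, without poor arrays, scaling shifts or a trend with brightness. That run cannot show how the fit deals with these features. The number of arrays limits the precision.

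Named genes were the called genes with the 12 highest and the 12 lowest differences, and the 3 members of each gene list with the smallest unadjusted p, with their other probe sets. The members and gene lists were chosen with earlier results of these data known. Alternatives changed the pseudocount, filter, scaling, weighting, covariates and arrays in the fit; those that leave out only arrays 8 and 83, that combine leaving out the arrays of low correlation with another change, or that use only animals 41 to 69 were chosen after seeing the data.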

Additional observations from a re-analysis of the deposited data

Results flagged for a closer look

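Among the 10 impaired arrays, 39 of 118 values tested had 1 array far from the others by Dixon's ratio of gap to range. These were 27 of 86 genes, 10 of 27 lists and 2 of 5 array measures. Chance gives about 1 in 20 for values not chosen beforehand. The 86 genes were named genes with a low adjusted p for impaired minus B, a difference to which arrays 8 and 83 contribute. Their share is therefore no measure against chance. The far array was number 83 for 30 of the 39 values and number 8 for 9. Many of these values come from the same arrays and are not independent, and their part in the group differences was not tested beyond the fits without these arrays.

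Gene values here are log2(signal + 15). On array 83 the high ones were Sf3b1 at 11.32, Stx7 at 10.78, Dnajb9 at 10.76, Grm7 at 10.35 and Arhgef4 at 10.12. The low ones for metabolism and protein turnover were Ldhb at 10.09, Pkm at 9.74, Atp5pb at 8.17, Rpl6 at 7.889, Rpl22 at 7.785, Psmd2 at 7.13, Higd2a at 6.598, Atp5pf at 6.57 and Prps1 at 6.343. The low ones for neuronal, signalling and immune genes were Hpca at 8.174, Sst at 7.916, Nr4a1 at 7.904, B2m at 7.67, Neurod2 at 7.403 and Gnai2 at 7.193. On array 8 the high ones were Il1b at 10.29, Crhbp at 10.02 and Or1e18 at 9.662, and the low ones Ppp1r9b at 8.796, Agt at 7.068, Map1a at 6.843 and Gabrd at 5.912.

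List levels are median deviations from the B mean in log2 units. On array 83 they were -3.232 for CA1 pyramidal markers, -2.868 for oxidative phosphorylation, -2.683 for ribosomal proteins, -2.67 for the cytoskeleton, -2.454 for heat shock proteins, -2.406 for glycolysis, -2.08 for astrocyte markers, -1.77 for kinases and phosphatases and 1.222 for microglia and complement. On array 8 the level was -0.8314 for synaptic vesicle genes. The log2 ratio of 3' to 5' controls was -0.3068 on array 83, and the mean spike-in signal 16.7 on array 8.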

How the results depend on the processing

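The 629 calls between impaired and B rats became 1864 with no filter on low signal, 409 with the lowest 60% left out, 413 after quantile normalization, 1051 after median centring, 316 after cyclic loess and 116 with the spike-in covariate. They became 50 without arrays 8 and 83, 14 in animals 41 to 69 alone, and, without the arrays of low correlation, 68 with the spike-in covariate and 332 with the number range as a block. Leaving out 1 array at a time gave 187 to 895. The 3 calls between unimpaired and B rats became 1 after quantile normalization or median centring, 13 with the 3' to 5' ratio as covariate, 87 without the arrays of low correlation, 140 without those of high disagreement among probe sets, 175 on the arrays of the groups compared alone and 436 with array weights; leaving out 1 array gave 1 to 5. Of 1543 values of the 71 called named genes under 22 settings, 1079 kept direction and call, 462 lost the call and 2 reversed; each of the 71 lost its call in at least 1 setting. Of 1846 values that leave out 1 array, 161 lost the call and 0 reversed. The reversals were Scn2a at 0.0215 without the arrays of low correlation and with the spike-in covariate, and Sgk1 at 0.0672 in animals 41 to 69; Kdr, which was not called, stood at -0.17 in the first of these fits. The causes were not tested. No paired analysis was possible because the animal numbers are unique and the groups share none. Dim genes lie nearest the background and have the least certain folds.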
